A study of Mus musculus with 18 samples.

Results

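Chromatin accessibility in Ebf1-deficient and wild-type mouse fetal liver cultures was compared at genomic sites that EBF1, PAX5 or both factors bind. The members are all rows of 3 peak tables, stacked: 7815 peaks bound by EBF1 and not PAX5 (EBF1-only), 5033 bound by PAX5 and not EBF1 (PAX5-only) and 1529 bound by both (shared), 14377 in all, which is every bound site with accessibility values here. The sites came from published ChIP-seq data that the submitters had re-analysed, so the choice of sites used no accessibility value. Accessibility in WT did rise with the strength of binding (below), so this choice need not be neutral between falls and rises. Sites that neither factor bound were not read, so counts of falls and rises describe bound sites only. Assay for transposase-accessible chromatin (ATAC) values came from 6 of the 18 libraries of the series, 3 per genotype, and 3 Pax5-deficient ATAC libraries entered the same fit. RNA libraries of the same genotypes, 3 each, were read beside the peaks.

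The groups were wild type (WT), Ebf1-/- (Ebf1-KO) and Pax5-/- (Pax5-KO), all from C57BL6/J fetal liver. Every group had been grown on OP9 stromal cells in medium with interleukin-7 and the ligands of KIT and FLT3, and all were labelled pro-B cells. The sources used here do not give ages, the deleted exons or whether libraries came from separate fetuses or cultures, so the spread behind each p-value may be technical. Values are tags per peak scaled by the submitters to 10 M tags per library (M, 1e6), called tags below. WT and Ebf1-KO libraries held 15.3 to 38.6 M tags, of which 1.52 to 2.31% lay in the tested peaks in WT and 0.930 to 1.11% in Ebf1-KO. Means are given ± SD over the 3 libraries of a group. In bulk chromatin, fewer cells with an open site and less opening per cell cannot be told apart.

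The targeted genes were read in RNA, as reads over exons per 10 M. Ebf1 was at 3252, 4200.3 and 4454 in WT against 1446, 1345 and 1605 in Ebf1-KO, so transcript was lower but not lost, and a count over all exons cannot show a deleted part. Pax5 was at 1314, 1629 and 1619 in WT against 8.53, 15.02 and 15.7 in Ebf1-KO, so the Ebf1-KO cells also lacked most Pax5 transcript. The label pro-B was checked with 14 marker genes. Their summed RNA was 43987 to 51606 in WT and 5383 to 5916 in Ebf1-KO, with Pou2af1 the largest member in WT (20457 ± 3928). Of the 14, 11 were lower and Kit was higher (282 ± 41.4 in WT against 1342 ± 268 in Ebf1-KO). Il7r and Rag2 did not pass with the submitters' scaling. Cd79a, a signalling chain of the B cell receptor, was at 2226 ± 45.2 in WT against 1.88 ± 0.707 in Ebf1-KO (SD, n = 3). Most of the markers therefore go against the label for the Ebf1-deficient cells, which are called Ebf1-KO cells below.

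EBF1 is a transcription factor that specifies the B lineage and can bind sites in closed chromatin, which are then opened. PAX5 is a paired-domain factor that commits progenitors to the lineage, activating genes of the B cell receptor and repressing genes of other lineages, and its gene is a target of EBF1. Accessible sites, where transposase can insert, mark promoters and distal enhancers, so the assay reads where such elements are open.

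The sequences of single sites show what the peaks are made of. They are printed from the plus strand of mm10 (GRCm38), leaving out annotated untranslated regions, with matches to 14 short motifs in capitals. First come sites of B-lineage genes. The Igll1 promoter site, a shared peak, holds an EBF1 palindrome (TCCCNNGGG), a PAX5 core (GCNTGAC), a RUNX motif (TGTGGTT) and an E-box (CAGCTG). The site upstream of Pax5 holds a RUNX motif and an E-box, and the Vpreb1 promoter holds none of the motifs in the part shown. Motifs are named for the part printed, and those elsewhere in a peak are given as such.
Igll1, chr16:16864059-16864258: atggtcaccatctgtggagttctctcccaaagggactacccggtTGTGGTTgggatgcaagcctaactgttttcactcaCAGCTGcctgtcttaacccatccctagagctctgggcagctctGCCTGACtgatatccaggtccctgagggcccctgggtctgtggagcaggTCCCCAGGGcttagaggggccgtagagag
Vpreb1, chr16:16869256-16869453: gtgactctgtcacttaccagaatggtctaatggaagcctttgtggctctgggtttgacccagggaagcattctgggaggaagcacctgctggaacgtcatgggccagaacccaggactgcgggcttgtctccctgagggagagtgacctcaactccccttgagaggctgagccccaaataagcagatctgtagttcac
Pax5, chr4:44729108-44729307: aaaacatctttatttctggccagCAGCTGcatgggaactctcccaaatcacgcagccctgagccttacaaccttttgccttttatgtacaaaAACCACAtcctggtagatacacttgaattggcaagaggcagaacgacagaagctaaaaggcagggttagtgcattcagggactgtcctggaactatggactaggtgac

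Next are the sites with the largest falls in each class that held a motif: the Il5ra promoter (EBF1-only, an E-box), a site near 4933417E11Rik (PAX5-only, an E-box) and a site near Gm2447 (shared, with a RUNX motif beside an octamer, ATGCAAAT, and an E-box in the part shown, and EBF1 and PAX5 matches in the rest of the peak).
Il5ra, chr6:106749185-106749384: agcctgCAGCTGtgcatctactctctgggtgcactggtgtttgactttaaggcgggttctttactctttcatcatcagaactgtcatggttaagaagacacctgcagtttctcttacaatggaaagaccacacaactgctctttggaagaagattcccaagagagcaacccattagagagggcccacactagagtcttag
4933417E11Rik, chr1:71956970-71957169: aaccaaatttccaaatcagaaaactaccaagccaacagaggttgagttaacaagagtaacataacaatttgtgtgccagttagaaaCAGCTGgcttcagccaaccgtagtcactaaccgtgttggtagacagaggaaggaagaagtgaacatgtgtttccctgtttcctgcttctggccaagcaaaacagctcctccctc
Gm2447, chr3:52638940-52639139: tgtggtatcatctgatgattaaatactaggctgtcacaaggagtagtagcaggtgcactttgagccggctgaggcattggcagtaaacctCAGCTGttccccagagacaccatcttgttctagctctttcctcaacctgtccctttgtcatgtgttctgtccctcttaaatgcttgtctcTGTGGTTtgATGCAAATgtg

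The last set are the largest rises in each class that held a motif: a site near Amn1 (EBF1-only, a STAT5 motif, TTCNNNGAA), one in the first intron of Mrgpra1 (PAX5-only, an EBF1 palindrome) and one in the first intron of Spata13 (shared, a PU.1 motif, GAGGAAGT, on the minus strand in the part shown, and a PAX5 core in the rest of the peak). A match describes letters only and is no evidence of binding.
Amn1, chr6:149193447-149193646: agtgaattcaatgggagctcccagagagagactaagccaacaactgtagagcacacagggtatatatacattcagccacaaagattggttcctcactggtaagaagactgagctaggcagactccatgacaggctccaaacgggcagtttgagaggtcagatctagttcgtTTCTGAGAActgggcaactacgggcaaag
Mrgpra1, chr7:47346102-47346301: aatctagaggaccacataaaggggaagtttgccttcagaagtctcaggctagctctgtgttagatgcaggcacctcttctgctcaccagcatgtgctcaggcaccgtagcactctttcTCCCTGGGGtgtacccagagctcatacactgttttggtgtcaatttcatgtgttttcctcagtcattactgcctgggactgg
Spata13, chr14:60666365-60666564: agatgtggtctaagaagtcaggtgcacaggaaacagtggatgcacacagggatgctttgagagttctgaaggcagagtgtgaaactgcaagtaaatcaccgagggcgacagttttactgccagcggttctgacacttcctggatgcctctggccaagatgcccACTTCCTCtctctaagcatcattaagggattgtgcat

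With the submitters' scaling, bound sites of each class were on average less accessible in Ebf1-KO than in WT, and sites bound by both factors lost the most. The direction over all sites depended on the scaling (median log2 fold change -0.78, but -0.10 with TMM factors and 0.19 after quantile normalization), and that of shared sites did not under the 4 scalings given below. The mean log2(tags + 1) over shared sites was 4.63, 4.11 and 4.41 in WT 1 to 3 and 2.59, 2.63 and 2.70 in Ebf1-KO 1 to 3. EBF1-only sites were at 3.32, 2.97 and 3.19 in WT against 2.25, 2.28 and 2.34 in Ebf1-KO. PAX5-only sites were at 3.27, 2.89 and 3.14 and 2.09, 2.14 and 2.19. In each class all Ebf1-KO libraries lay below all WT libraries, with differences of -1.74 (shared), -0.87 (EBF1-only) and -0.96 (PAX5-only), each with an exact two-sided permutation p of 0.1, the smallest that 3 against 3 libraries allow. On the tag scale the median shared site went from 20.7 to 4.01, the median EBF1-only site from 8.04 to 2.87 and the median PAX5-only site from 7.65 to 2.49 (medians over sites of the group means). Shared sites were thus the most open class in both genotypes, with a much smaller lead in Ebf1-KO.

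**Figure D1:**
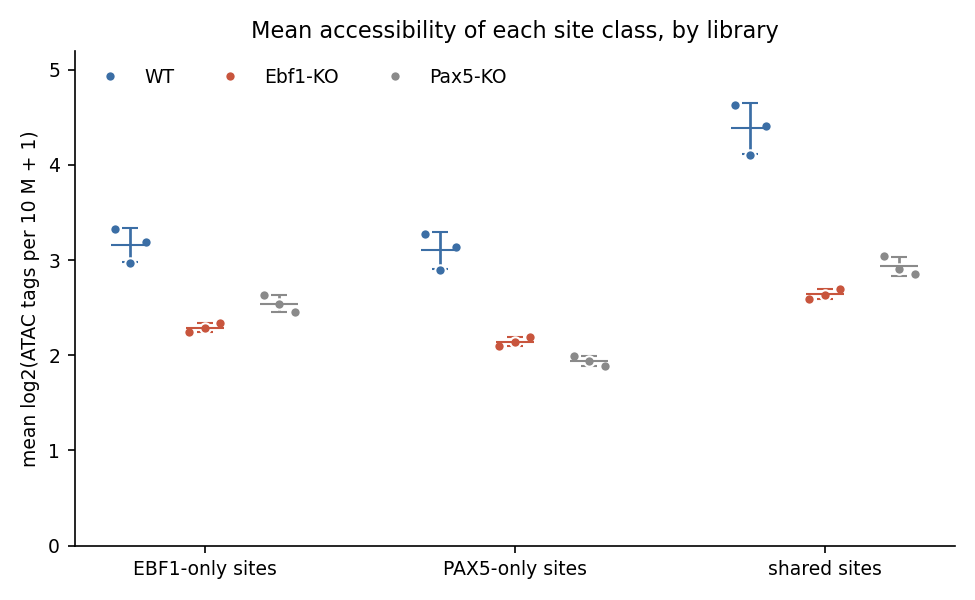
Mean log2(ATAC tags per 10 M + 1) over the tested peaks of each site class (y axis), 1 point per library, with a bar for the group mean and whiskers for the SD (n = 3). WT, Ebf1-KO and Pax5-KO are blue, red and grey; shared sites are at 4.11 to 4.63 in WT and 2.59 to 2.70 in Ebf1-KO.

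A difference between classes within a library is largely free of the scale of that library. Shared sites exceeded EBF1-only sites by 1.31, 1.14 and 1.22 (log2) in WT but by 0.347, 0.349 and 0.364 in Ebf1-KO. Over PAX5-only sites the excess was 1.36, 1.21 and 1.27 in WT against 0.5001, 0.492 and 0.513 in Ebf1-KO. Both gaps shrank in every Ebf1-KO library, by 0.87 and 0.78 (exact two-sided permutation p = 0.1 for each). Between PAX5-only and EBF1-only sites the difference moved by -0.09 (exact two-sided permutation p = 0.1). The sign of this move turned after centring within deciles of GC content and among peaks with a mean of at least 20 tags. In Pax5-KO, shared sites exceeded EBF1-only sites by 0.406, 0.367 and 0.397, close to the Ebf1-KO values. Over PAX5-only sites their excess in Pax5-KO was 1.05, 0.960 and 0.971, between the other genotypes.

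Single peaks were tested with limma over 9 libraries, and where a site is given below with a lone value before its adjusted p, that value is the log2 fold change. Of 14365 peaks with at least 10 reads in all, 7346 were called lower in Ebf1-KO (51.1%) and 471 higher (3.28%) at an adjusted p under 0.05. Fold changes are of log2(tags + 1), which understates the change of low peaks, and the median log2 fold change over all peaks was -0.78. How many peaks rose or fell depended on the scaling. With TMM factors 4273 peaks were lower and 2923 higher (median -0.10). After centring on peaks near start sites the counts were 5294 and 1500 (-0.33), and after quantile normalization 3128 and 3780 (0.19). DESeq2 on the recovered reads called 3506 lower and 2748 higher. Which scaling matches the cells cannot be told from these data, so peaks called in the same direction under the submitters' scaling and the other 3 limma scalings are given beside most counts as calls under all 4 scalings. These were 3036 lower (21.1%) and 471 higher (3.28%). The other 3 scalings raise the median fold change, so a rise could hardly be lost under them, and that all 471 held is no check of the rises.

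By class, 1168 of 1529 shared sites were lower (76.4%) and 37 higher, 3540 of 7805 EBF1-only sites lower (45.4%) and 139 higher, and 2638 of 5031 PAX5-only sites lower (52.4%) and 295 higher. Called lower under all 4 scalings were 49.1% of shared, 15.96% of EBF1-only and 20.7% of PAX5-only sites. The median log2 fold change of shared sites, -1.70, stayed negative under every scaling (-0.91 with TMM, -0.67 after quantile normalization). That of EBF1-only sites was -0.64 and turned to 0.03 with TMM and 0.30 after quantile normalization. For PAX5-only sites it was -0.84, -0.16 with TMM and 0.16 after quantile normalization. Promoters made up 1467 of the 7805 EBF1-only and 258 of the 5031 PAX5-only sites. At promoters 19.8% of EBF1-only and 33.3% of PAX5-only sites were lower. The shares were nearly alike in introns (51.9 and 53.2%) and at intergenic sites (53.3 and 54.4%). Medians with TMM were also close there, at -0.17 and -0.19 and at -0.20 and -0.23. The part of promoters in the class medians was not tested. Falls over 4-fold were called at 649 shared, 1110 EBF1-only and 958 PAX5-only sites, and rises over 4-fold at 2, 4 and 31. Of the 471 rises with the submitters' scaling 295 were at PAX5-only sites (5.86% of that class, against 1.78% of EBF1-only sites). By count alone EBF1-only sites led under the other scalings. Peaks called higher were 1678 EBF1-only against 1004 PAX5-only with TMM, 730 against 648 with start-site centring and 2216 against 1345 after quantile normalization. The EBF1-only class is larger (7805 against 5031 peaks tested). As a share of its class, EBF1-only was still slightly ahead with TMM and after quantile normalization. With start-site centring the share was larger at PAX5-only sites. Which class rose more often thus depended on the scaling. All Ebf1-KO libraries lay below all WT libraries at 7864 peaks (54.7%) and above at 635 (4.42%).

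**Figure D2:**
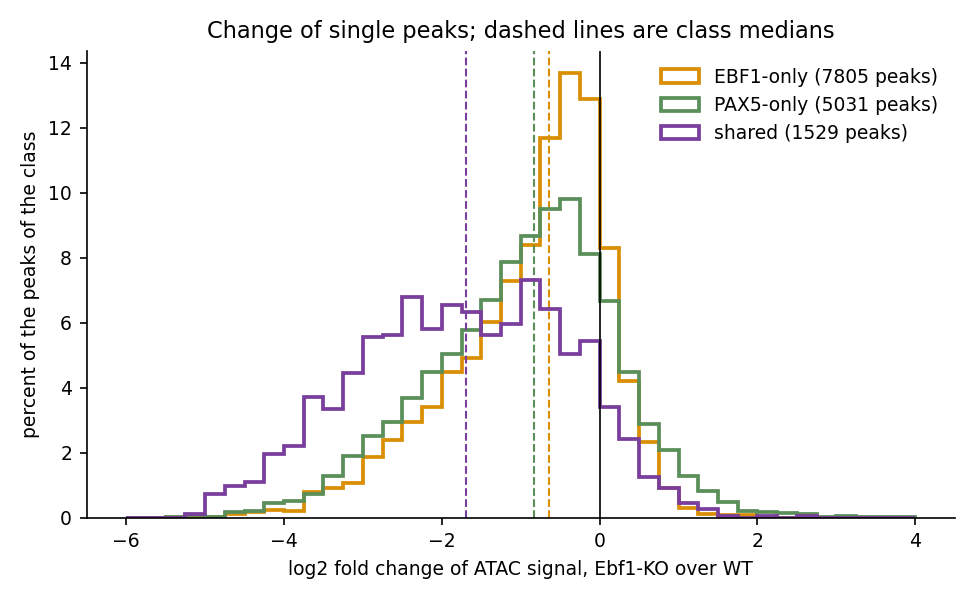
Distribution of the log2 fold change of single peaks, Ebf1-KO over WT (x axis), as the percent of the peaks of each class (y axis, bins of 0.25). Dashed lines are class medians, -0.64 for EBF1-only, -0.84 for PAX5-only and -1.70 for shared sites; the shared distribution is broad and reaches below -4.

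Sites far from genes lost accessibility relative to promoters. Promoter sites (as the deposited annotation names them) had a mean log2 signal of 4.32, 3.88 and 4.11 in WT against 3.55, 3.68 and 3.79 in Ebf1-KO. Intergenic sites were at 3.33, 2.94 and 3.19 and 1.98, 2.01 and 2.06. The difference, intergenic less promoter, was -0.952 ± 0.0352 in WT, -1.27 ± 0.0397 in Pax5-KO and -1.66 ± 0.0811 in Ebf1-KO (SD, n = 3). WT and Ebf1-KO libraries did not overlap (exact two-sided permutation p = 0.1). Of 1808 promoter peaks 429 were lower (23.7%) and 27 higher, and 78 were lower under all 4 scalings. The direction at promoters turned under the others. Lower and higher counts there were 116 and 868 with TMM (median 0.51, against -0.33 with the submitters' scaling), 211 and 292 with start-site centring (0.12) and 99 and 815 after quantile normalization (0.49). Of 6130 intronic peaks 3381 were lower (55.2%; 1372 under all 4) and 220 higher. Of 5609 intergenic peaks 3182 were lower (56.7%; 1459 under all 4) and 203 higher. The share lower under all 4 scalings was 4.73% within 1 kb of a start site, 18.4% from 1 to 10 kb, 24.1% from 10 to 50 kb and 31.2% beyond 50 kb. The order of distance held within each class: among shared sites the shares were 29.3, 45.5, 47.99 and 59.7%. GC content moved with distance, from a median of 57.9% within 1 kb to 47.4% beyond 50 kb, and its part in the difference by distance was not tested.

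**Figure D3:**
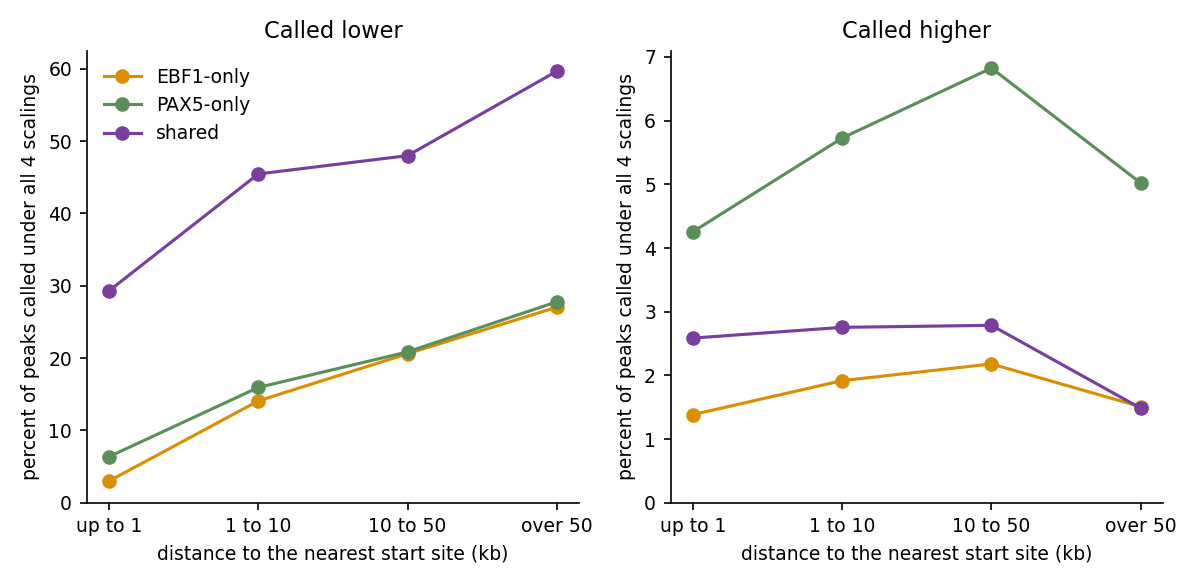
Percent of peaks called lower (left) and higher (right) in Ebf1-KO under all 4 scalings (y axes) against the distance to the nearest start site in kb (x axis), for EBF1-only, PAX5-only and shared sites. Shared sites beyond 50 kb reach 59.7% lower, and PAX5-only sites have the highest shares called higher, up to 6.82%.

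Sites with stronger binding in the ChIP data, by the submitters' peak score, were more often lower. In the lowest quartile of scores 6.17% of EBF1-only, 12.1% of PAX5-only and 31.5% of shared sites were lower under all 4 scalings. In the highest quartile the shares were 31.2, 32.5 and 64.2%. Accessibility in WT rose with the score as well, from a median of 5.76 to 12.2 tags at EBF1-only sites, and its part in the calls was not tested. In Ebf1-KO the median was nearly level across the same quartiles, 3.01 in the lowest and 3.02 in the highest. At shared sites the median went from 15.9 to 25.1 in WT and from 4.91 down to 3.09 in Ebf1-KO.

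The submitters' own coverage profiles around EBF1 peaks, deposited without replicates, split the peaks into a positive and a negative set that the sources used here do not define. In the positive set the mean coverage within 100 bp of the centre was 6.34 tags per bp per peak in WT and 2.26 in Ebf1-KO, a ratio of 0.357. In the negative set it was 4.66 and 2.96, a ratio of 0.634. At 2 kb or more from the centre the ratios were 0.759 and 1.05. These are the submitters' values, with no replicate check, and in both sets the ratio was lower at the centre than beside it.

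Sites that closed and sites that opened were compared for short motifs. Motifs were sought on both strands of 14360 tested peaks, overlapping matches to different motifs were each counted, and the share of all peaks with each motif is the background. The EBF1 palindrome TCCCNNGGG was in 34.2% of all peaks, 52.4% of EBF1-only, 4.63% of PAX5-only and 38.2% of shared sites. Over all classes it was in 33.1% of peaks lower and 15.5% of those higher under all 4 scalings, with 295 of the 471 higher being PAX5-only. Within EBF1-only sites it was in 51.8% of those lower and 35.97% of those higher under all 4 scalings. Within each library, the mean log2 signal of distal peaks (beyond 1 kb) with the palindrome less that of those without was -0.443, -0.319 and -0.402 in WT against -0.393, -0.426 and -0.461 in Ebf1-KO. These groups overlapped (exact two-sided permutation p = 0.5). The PAX5 core GCNTGAC was in 14.4% of all peaks, 15.6% of those lower and 15.1% of those higher.

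Several motifs of other factors moved more between the genotypes at distal peaks. Their shares are given with no test over peaks. The octamer ATGCAAAT, the site of POU factors that pair with the co-activator Pou2af1, was in 3.05% of peaks, 5.47% of those lower and 0.425% of those higher under all 4 scalings. Distal octamer sites less other distal sites gave 0.445, 0.276 and 0.335 (log2) in WT against -0.226, -0.231 and -0.259 in Ebf1-KO. The difference turned in all 3 Ebf1-KO libraries (shift -0.59). It turned in Pax5-KO as well, at -0.132, -0.190 and -0.172. The E-box CAGCTG, bound by E proteins, was in 23.6% of peaks, 30.8% of those lower and 24.6% of those higher. Its distal shift was -0.20, and the Pax5-KO libraries lay between the other genotypes. The RUNX motif TGTGGTT was in 14.2% of peaks, 15.4% of those lower and 34.4% of those higher, and in 40.0% of the PAX5-only sites that were higher against 18.5% of all PAX5-only sites. The PU.1 motif GAGGAAGT was in 5.78%, 5.60% and 10.4% of all, lower and higher peaks. Distal sites with a RUNX or PU.1 motif gained on the others by 0.19 and 0.19 in Ebf1-KO. For both motifs the Pax5-KO libraries overlapped those of WT. WT and Ebf1-KO libraries did not overlap for any of these 4 distal shifts, nor for 8 of the other 10 motifs, the exceptions being EBF1 and PAX5. Each of the 4 had an exact two-sided permutation p of 0.1, and with 28 motif differences computed no adjusted value can be lower. The GC box GGGCGGG and the ETS motif CCGGAAG, both common at promoters, were in 6.40 and 4.92% of peaks and in 2.47 and 2.47% of those lower.

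Most sites next to genes of the pre-B cell receptor were called lower. Of 73 peaks whose nearest gene is 1 of the 24 receptor and signalling genes (22 had a peak), 59 were lower (80.8%, against 51.1% of all peaks) and 2 higher. Under all 4 scalings 28 were lower (38.4% against 21.1%). The median peak of the list was also more open in WT (13.8 tags against 8.84 over all peaks). With TMM the counts were 36 and 9. The list had a median log2 fold change of -1.42 against -0.78 over all peaks (-0.83 against -0.10 with TMM). Igll1 encodes the surrogate light chain lambda5. Its promoter peak, partly shown above, at chr16:16863976-16864343, -174 bp from the start site (minus is upstream), held 75.8, 53.6 and 58.3 tags in the WT libraries against 3.50, 5.75 and 3.84 in Ebf1-KO. All Ebf1-KO libraries were far below all WT libraries (a log2 fold change of -3.57 with SE 0.26, limma adjusted p = 1.06e-21). Vpreb1, the partner chain, had a promoter peak (PAX5-only, chr16:16869230-16869478) with 24.2, 13.1 and 17.9 tags in the WT libraries against 1.56, 0.610 and 1.92 in Ebf1-KO (-3.04, limma adjusted p = 1.19e-14). Cd79a, a signalling chain of the receptor, had a shared promoter peak (chr7:24897241-24897535) with 52.9, 34.2 and 43.8 tags in the WT libraries against 2.34, 2.72 and 3.20 in Ebf1-KO (-3.56, limma adjusted p = 3.49e-21). Each of these 3 promoters was open in every WT library and at a few tags in every Ebf1-KO library.

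Distal sites of the same pathway fell as well. A PAX5-only peak whose nearest start site is Cd79b, the other signalling chain, lies in intron 18 of the neighbouring gene Scn4a (chr11:106324887-106325135) and held 11.1, 14.5 and 13.7 tags in the WT libraries against 1.56, 1.21 and 2.56 in Ebf1-KO (-2.37, limma adjusted p = 4.68e-09). Near Vpreb3, a shared peak at the transcription end (chr10:75949521-75949967) held 24.8, 26.2 and 16.8 tags in the WT libraries against 5.84, 3.93 and 3.20 in Ebf1-KO (-2.16, limma adjusted p = 2.94e-10). For Bcar3, an adaptor of the list, the intergenic PAX5-only peak at chr3:122403941-122404189 went from 63.4, 29.6 and 45.6 to 0.780, 0.610 and 0.640 (-4.75, limma adjusted p = 3.19e-23). Blnk, an adaptor downstream of the receptor, differed in size: its highest peak, in intron 4 (chr19:40963050-40963320), held 20.2, 16.5 and 15.5 tags in the WT libraries against 6.62, 11.2 and 10.6 in Ebf1-KO (-0.84, limma adjusted p = 0.00803), a call lost without Ebf1-KO 1 and under the other scalings, where quantile normalization turned the direction (log2 fold change 0.15). All 5 Blnk peaks were called lower, from -3.37 to -0.84, 3 of them under all 4 scalings. RNA of Blnk was 1151 ± 167 in WT against 0.990 ± 0.340 in Ebf1-KO.

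Around genes of B-lineage transcription factors, 60 of 88 peaks were lower and 1 higher (median -1.28; 17 of 21 genes had a peak). The share lower was 68.2% against 51.1% of all peaks, and 30.7% (27) against 21.1% under all 4 scalings. The promoter of Pou2af1, the co-activator of octamer-binding factors, had the largest fall among the key genes: its shared peak at chr9:51213082-51213370 held 34.6, 41.3 and 41.4 tags in the WT libraries against 0.780, 0.610 and 1.28 in Ebf1-KO (a log2 fold change of -4.42 with SE 0.28, limma adjusted p = 3.19e-25). Every Ebf1-KO library was at 1.28 tags or less. Pax5 had 2 peaks, both PAX5-only. The higher one, -18768 bp from the start site at chr4:44729084-44729332 and shown above, held 15.7, 9.12 and 6.47 tags in the WT libraries against 1.17, 3.33 and 0.640 in Ebf1-KO (-2.12, limma adjusted p = 4.12e-07). Foxo1, a factor that drives Rag gene transcription, had 12 peaks, 9 lower (3 under all 4 scalings) and none higher, with values from -2.84 to -0.14. Its highest peak, an intergenic shared site at chr3:52443859-52444253, held 64.7, 41.6 and 56.7 tags in the WT libraries against 12.1, 7.26 and 12.5 in Ebf1-KO (-2.26, limma adjusted p = 3.13e-12). With TMM 2 of the Foxo1 peaks were higher.

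Lef1, a TCF-family factor, showed neighbouring sites that differed. A shared site at -52908 bp from its start (chr3:131057240-131057538) held 47.04, 30.5 and 37.8 tags in the WT libraries against 23.4, 31.2 and 27.5 in Ebf1-KO (-0.46, limma adjusted p = 0.125). Its groups overlapped and the difference did not pass. An EBF1-only site at -55548 bp (chr3:131054614-131054884) held 50.3, 28.2 and 37.3 tags in the WT libraries against 1.17, 1.51 and 1.60 in Ebf1-KO (-3.99, limma adjusted p = 1.72e-22), with groups far apart. Both were about equally open in WT (38.4 ± 8.30 and 38.6 ± 11.1 tags). In all, 7 of 8 Lef1 peaks were lower, 5 under all 4 scalings. Runx1, a RUNX factor of early blood cells, had an EBF1-only site at chr16:92921868-92922138 with 23.5, 19.7 and 19.2 tags in the WT libraries against 0.780, 1.51 and 1.92 in Ebf1-KO (-3.20, limma adjusted p = 2.25e-16), while its RNA did not pass (2159 ± 176 in WT against 2246 ± 68.1 in Ebf1-KO, adjusted p = 0.735).

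Peaks near V(D)J recombination genes were lower in 14 of 22 cases (6 under all 4 scalings), and none was higher (median -0.87). These shares, 63.6 and 27.3%, were near those of all peaks (51.1 and 21.1%), so the list did not stand out, and single sites of it are given as such. A PAX5-only site closest to Rag2, a recombinase subunit, at chr2:101598867-101599115 in intron 2 of Iftap, held 54.2, 24.8 and 33.9 tags in the WT libraries against 1.17, 1.51 and 1.60 in Ebf1-KO (-3.93, limma adjusted p = 5.21e-20). Within Rag1, the peak at chr2:101648487-101648735 held 6.53, 6.55 and 6.73 tags in the WT libraries against 2.34, 2.42 and 1.92 in Ebf1-KO (-1.24, limma adjusted p = 0.00181), a call lost under TMM, start-site and quantile scaling and under DESeq2. Lig4, the ligase of end joining, had an EBF1-only peak in its intron (chr8:9975291-9975561) with 55.5, 25.9 and 35.7 tags in the WT libraries against 1.95, 3.63 and 4.16 in Ebf1-KO (-3.21, limma adjusted p = 2.20e-16). Xrcc4, its partner, had a PAX5-only intronic peak (chr13:90056901-90057149) with 15.03, 9.97 and 14.2 tags in the WT libraries against 0, 0 and 0.960 in Ebf1-KO (-3.47, limma adjusted p = 4.69e-13), and 2 of the Ebf1-KO libraries held no read there.

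The genes with the most lower peaks lie beside the immunoglobulin kappa locus. Rprl1 (23 of 38 peaks), 4930515G16Rik (20 of 27) and Rpia (12 of 16) are the names that the deposited annotation gives to sites on chromosome 6 that lie across the kappa gene segments, which it does not name. After this was seen, peaks were counted within the loci as GENCODE vM21 gives them. The kappa locus (chr6:67555497-70726966) held 80 tested peaks, 65 of them EBF1-only. Of the 80, 54 were lower (67.5%) and none higher, and 31 were lower under all 4 scalings (38.8%). Over all peaks these shares were 51.1 and 21.1%, and over EBF1-only sites 45.4 and 15.96%. The median peak there was at 5.23, 3.71 and 4.79 tags in WT against 0.780, 0.610 and 0.960 in Ebf1-KO, and the median log2 fold change was -1.56. In the heavy chain locus (chr12:113254830-116010093) 14 of 30 peaks were lower (5 under all 4), 18 of the 30 being PAX5-only, with a median of -0.74, close to that of all peaks. Kappa sites were weak, with a few tags in WT. The next genes by lower peaks were Cmip (11 of 13, 2 under all 4) and Capn13 (10 of 13, 4 under all 4).

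**Figure D4:**
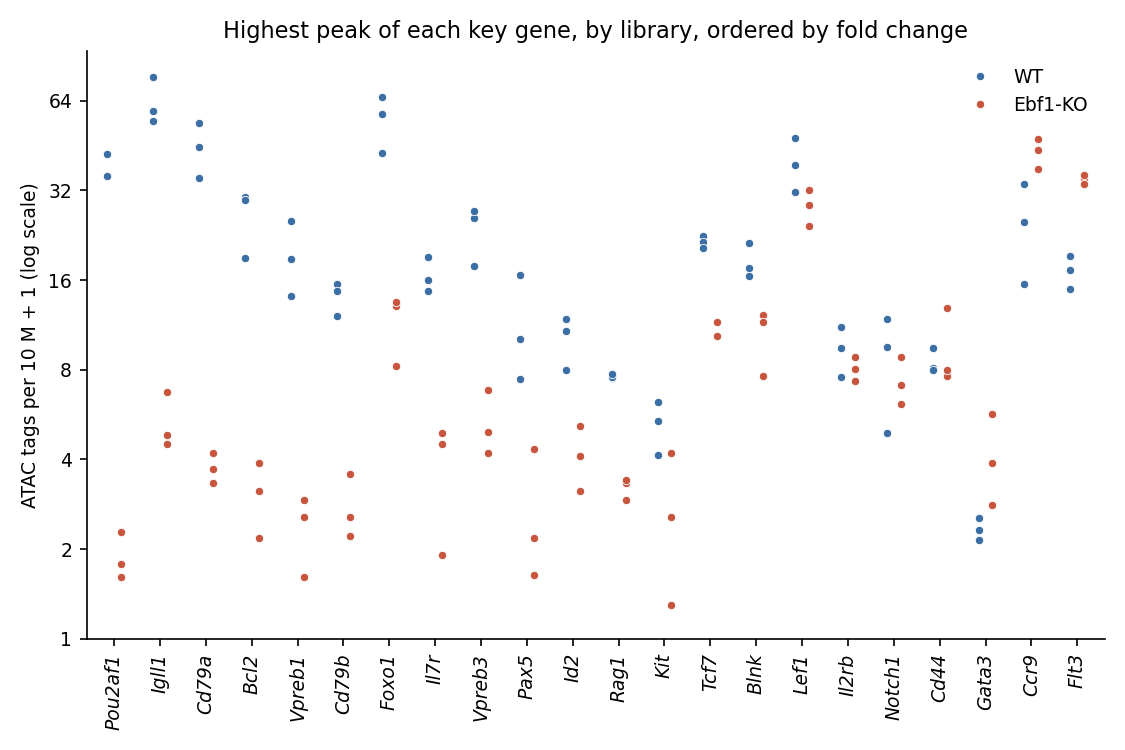
ATAC tags per 10 M + 1 (y axis, log scale) at the highest peak of each of 22 key genes (x axis, ordered by fold change), 1 point per WT (blue) and Ebf1-KO (red) library. From Pou2af1 to Rag1 the groups do not overlap and Ebf1-KO is lower. At Gata3, Ccr9 and Flt3 all Ebf1-KO points are above all WT points, and Gata3 was not called with the submitters' scaling.

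Bound sites near genes of other lineages were few and were called in both directions, while most of these genes gained RNA. Of 32 peaks near T lineage genes 20 were lower (62.5% against 51.1% of all peaks; 4 under all 4 scalings, 12.5% against 21.1%) and none higher (median -0.89, near that of all peaks), while 15 of 17 genes of the list tested in RNA were higher. Over all 12944 genes tested in RNA 40.7% were higher and 14.4% lower. Near NK and innate lymphoid genes there were only 7 peaks, 3 lower (2 under all 4 scalings) and 1 higher, for 17 of 18 genes higher in RNA. Of 17 peaks near stem and progenitor genes 5 were lower (29.4%; 3 under all 4) and 3 higher (17.6%, against 3.28% of all peaks). Of 15 near myeloid genes 5 were lower (33.3%; 2 under all 4) and 1 higher (6.67%). Only EBF1 and PAX5 peaks of the ChIP data are in these tables, so other elements of these genes were not analysed here. With TMM the counts of lower and higher peaks were 7 and 3 (T lineage), 2 and 2 (NK), 4 and 6 (progenitor) and 3 and 2 (myeloid).

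Several such genes lost a bound site while their RNA rose. Cd28, a T cell co-stimulatory receptor, had an intergenic PAX5-only site (chr1:60798781-60799029) with 18.3, 10.8 and 16.1 tags in the WT libraries against 0.390, 1.21 and 0.960 in Ebf1-KO (-3.11, limma adjusted p = 4.12e-12), and RNA of 8.503 ± 4.48 in WT against 1102 ± 257 in Ebf1-KO. The site closest to Zap70, a kinase of T cell receptor signalling, lies in an exon of the neighbour Tmem131 (chr1:36801722-36801992) and held 24.2, 16.5 and 16.6 tags in the WT libraries against 0.390, 2.12 and 2.56 in Ebf1-KO (-2.99, limma adjusted p = 9.69e-13), with Zap70 RNA at 0.276 ± 0.247 in WT against 91.6 ± 21.6 in Ebf1-KO. Fcgr3, an Fc receptor of myeloid and NK cells, had a PAX5-only site at its transcription end (chr1:171050825-171051073) with 25.5, 18.5 and 20.97 tags in the WT libraries against 3.12, 2.42 and 2.88 in Ebf1-KO (-2.57, limma adjusted p = 2.30e-11) and RNA of 0.0933 ± 0.162 in WT against 372 ± 13.98 in Ebf1-KO. In each of the 3 the chromatin groups and the RNA groups moved in opposite directions without overlap. Bcl2, an inhibitor of apoptosis, did the same: a PAX5-only site in its intron (chr1:106663091-106663339) held 29.4, 17.9 and 28.7 tags in the WT libraries against 1.17, 2.12 and 2.88 in Ebf1-KO (-3.12, limma adjusted p = 1.64e-15), and RNA was 349.8 ± 68.1 in WT against 6758 ± 1493 in Ebf1-KO. Klrd1, an NK receptor, had a PAX5-only site (chr6:129606981-129607229) that went from 25.5, 11.7 and 15.5 to 2.34, 1.51 and 0.960 (-2.80, limma adjusted p = 1.82e-10).

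Other genes had sites that opened or did not pass. In intron 9 of Flt3, the receptor of a cytokine of the culture, a PAX5-only site (chr5:147366455-147366703) held 18.3, 13.96 and 16.3 tags in the WT libraries against 34.3, 35.1 and 32.6 in Ebf1-KO (a log2 fold change of 1.03 with SE 0.26, limma adjusted p = 3.75e-04). Near Ccr9, a chemokine receptor of thymus-seeding progenitors, a PAX5-only site (chr9:123754452-123754700) held 32.7, 14.5 and 24.1 tags in the WT libraries against 42.8, 36.6 and 46.4 in Ebf1-KO (0.86, limma adjusted p = 0.00450), a call lost without WT 2. Another Ccr9 peak was lower (-1.14). At the 2 sites described, every Ebf1-KO library was above every WT library. Gata3, a T and innate lymphoid factor, had a PAX5-only site (chr2:9587672-9587920) at 1.31, 1.14 and 1.55 tags in the WT libraries against 4.67, 1.82 and 2.88 in Ebf1-KO that did not pass (0.77, limma adjusted p = 0.0826) but did with TMM (adjusted p = 0.00389). Sites of Notch1 (-0.18, adjusted p = 0.656), Il2rb (-0.20, 0.576) and Cd44 (0.11, 0.783) did not pass in limma, with overlapping groups, while another Il2rb peak was higher (0.83). Tcf7 and Id2, regulators of T and innate lymphoid cells, had sites called lower (-0.999 and -1.31) whose calls were lost under TMM and quantile scaling (TMM log2 fold change -0.15 and -0.56). A second Id2 site, PAX5-only in intron 23 of the neighbour Kidins220 (chr12:25037293-25037541), held 10.4, 6.84 and 6.21 tags in the WT libraries against 0.780, 1.51 and 0.640 in Ebf1-KO (-2.15, limma adjusted p = 3.89e-07) and was lower under all 4 scalings. The Kit site had overlapping groups (-1.10), and its call was lost under TMM, start-site and quantile scaling and without Ebf1-KO 2. Il7r, whose RNA did not pass (1821 ± 175 in WT against 2079 ± 115 in Ebf1-KO), had a PAX5-only intergenic site (chr15:9492139-9492387) with 15.03, 13.7 and 18.1 tags in the WT libraries against 3.89, 0.910 and 3.52 in Ebf1-KO (-2.25, limma adjusted p = 1.19e-08). Of the 28 key genes, Ebf1, Erg, Cd34, Meis1 and Igf2 had no tested peak.

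In the other lists, 34 of 59 peaks near cytokine signalling genes were lower (57.6%; 12 under all 4 scalings, 20.3%) and 3 higher, and 29 of 51 near adhesion and homing genes were lower (56.9%; 15 under all 4, 29.4%) and 2 higher. These shares were near the 51.1 and 21.1% of all peaks. Bcl2l1, a survival factor, had an intronic PAX5-only site at 33.2 ± 9.997 in WT and 2.63 ± 0.806 in Ebf1-KO (-3.21, limma adjusted p = 9.85e-16). Itga4, an integrin chain, had an upstream PAX5-only site (chr2:79230918-79231166) at 35.5 ± 13.2 in WT against 2.61 ± 0.692 in Ebf1-KO (-3.28, limma adjusted p = 2.96e-16), with RNA of 2419 ± 302 in WT against 6434 ± 1392 in Ebf1-KO. Cxcr4, the receptor for the chemokine of marrow stroma, had a shared site (chr1:128601384-128601673) that fell from 21.6 ± 7.11 to 1.82 ± 0.455 (-2.97, limma adjusted p = 3.95e-13). Near 12 ubiquitously expressed genes, listed as a check, 9 of 19 peaks were lower (5 under all 4) and none higher, with a median of -0.76. This is near the median of all peaks.

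Because the cells had grown on OP9, stroma markers were read in RNA, and their part in the results was not tested. Of 16 stroma genes, 3 rose (Pdgfrb, Thy1 and Vim, of which Vim and Thy1 are also made by blood cells), 1 fell (Acta2) and 7 of the 11 tested did not pass. Their summed RNA was 1604 to 2048 in WT and 4376 to 5081 in Ebf1-KO, most of it Vim. Col1a1 was at most 9.16 in WT against 4.03 in Ebf1-KO, in library 2 of each group, and Dcn was at 0 in all 6 libraries. Fn1 was also highest in library 2, at 40.1, 144 and 70.9 in WT 1 to 3 against 9.075, 65.2 and 29.0 in Ebf1-KO 1 to 3. Stroma RNA thus varied between libraries of a group. Near stroma genes 3 of 9 peaks were lower (1 under all 4 scalings) and 2 higher, among them a PAX5-only site near Cxcl12 (chr6:117431564-117431812) with 28.7, 14.2 and 19.2 tags in the WT libraries against 47.5, 47.2 and 54.4 in Ebf1-KO (1.28, limma adjusted p = 2.26e-05), where Cxcl12 RNA was 12.8 ± 13.6 in WT against 4.78 ± 4.59 in Ebf1-KO.

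The largest falls, at sites with a mean of at least 20 tags over the 6 libraries, ended near 0 in Ebf1-KO in every class. Among EBF1-only sites the first lay in intron 1 of Galntl6, nearest Gm15881 (chr8:58586636-58586906), with 121, 50.1 and 95.5 tags in the WT libraries against 0.780, 1.21 and 0.960 in Ebf1-KO (a log2 fold change of -5.42 with SE 0.31, limma adjusted p = 1.37e-27). Il5ra, the interleukin-5 receptor chain, followed with the promoter shown above (chr6:106749150-106749420), 116, 47.01 and 93.2 tags in the WT libraries against 1.17, 0.610 and 2.24 in Ebf1-KO (-5.17, limma adjusted p = 7.90e-26), and its RNA was 212 ± 26.96 in WT against 0.658 ± 0.0957 in Ebf1-KO. Intergenic sites nearest Kctd16 (78.4, 39.6 and 52.8 in WT against 1.17, 0.910 and 0 in Ebf1-KO) and Mir1187 (47.7, 30.5 and 45.6 in WT against 0, 1.21 and 0.320 in Ebf1-KO) had log2 fold changes of -5.12 and -4.86. In all 4, WT 2 was the lowest WT library and still over 30 tags.

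Among PAX5-only sites, the 4 largest falls were intergenic. The site nearest 4933417E11Rik (chr1:71956946-71957194) held 92.8, 47.9 and 71.2 tags in the WT libraries against 0, 2.42 and 0.640 in Ebf1-KO (-5.28, limma adjusted p = 1.33e-27). Sites nearest 1600027J07Rik (chr8:103196788-103197036), C630028M04Rik (chr4:51834298-51834546) and Pfn2 (chr3:57914739-57914987) fell from 57.98 ± 20.6, 43.7 ± 15.6 and 55.1 ± 14.9 tags in WT to 0.580 ± 0.510, 0.207 ± 0.179 and 0.657 ± 0.542 (log2 fold change -5.21, -5.15 and -5.10). These sites, which have no EBF1 peak in the ChIP data, thus also ended near 0. Among shared sites, one in intron 3 of Celf2, which encodes an RNA-binding protein, held 100, 58.97 and 112 tags in the WT libraries against 1.17, 2.42 and 1.92 in Ebf1-KO (chr2:7115191-7115567; -4.98, limma adjusted p = 2.20e-27), although Celf2 RNA was higher in Ebf1-KO (2984 ± 581 in WT against 4232 ± 357 in Ebf1-KO). The intergenic shared sites nearest Kcnk9 (chr15:72503568-72503841) and Gm2447 (chr3:52638891-52639190) held 74.5, 35.04 and 60.6 in WT against 1.17, 0.300 and 0.320 in Ebf1-KO, and 54.9, 42.2 and 51.01 in WT against 0.390, 0.610 and 0.640 in Ebf1-KO. A site in intron 9 of Stpg2 (chr3:139316847-139317119) held 82.3, 44.2 and 65.8 in WT against 0.780, 0.300 and 2.56 in Ebf1-KO. The log2 fold changes of these 3 were -5.15, -5.02 and -4.97.

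The largest rises were at PAX5-only sites. A site in the intron of Mrgpra1, a G protein-coupled receptor gene (chr7:47346078-47346326, shown above), held 1.96, 2.28 and 5.18 tags in the WT libraries against 49.8, 47.8 and 59.2 in Ebf1-KO (a log2 fold change of 3.76 with SE 0.27, limma adjusted p = 2.56e-22). One in intron 1 of Rin3, a regulator of RAB5 (chr12:102302399-102302647), held 3.27, 1.14 and 2.33 tags in the WT libraries against 36.6, 37.2 and 42.2 in Ebf1-KO (3.67, limma adjusted p = 2.82e-21), with Rin3 RNA at 344 ± 12.8 in WT against 409.9 ± 47.7 in Ebf1-KO and not passing. Intergenic sites nearest Cdh26 (chr2:178506104-178506352) and at chr2:75763354-75763602, with no gene named, went from 4.57, 2.28 and 2.59 to 40.5, 42.96 and 53.8 and from 5.88, 3.70 and 6.21 to 31.5, 38.4 and 43.2. These sites were nearly closed in all WT libraries and well open in all Ebf1-KO libraries. At EBF1-only sites the largest rise, near Amn1 (chr6:149193412-149193682), went from 7.84, 7.12 and 5.18 to 44.0, 46.3 and 59.5 (2.73, limma adjusted p = 6.60e-15). It was followed by sites in intron 10 of Rgs3 (2.21), nearest Ism1 within Tasp1 (2.05) and near Glipr1 (1.91).

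At shared sites rises were smaller. Spata13, a guanine nucleotide exchange factor gene, had a site in intron 1 (chr14:60666294-60666636, shown above) with 18.3, 10.3 and 12.2 tags in the WT libraries against 40.5, 43.6 and 54.4 in Ebf1-KO (1.72, limma adjusted p = 2.07e-08). Sites in intron 3 of Plekha2 (nearest Htra4), intron 1 of Pdia5 and intron 1 of Tmem51 followed with 1.48, 1.36 and 1.27. Pdia5, a protein disulfide isomerase, had RNA of 2.69 ± 1.81 in WT against 299 ± 51.8 in Ebf1-KO. The 12 rises named here and above were chosen as called peaks whose groups do not overlap.

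Of 7795 genes with a tested peak, 4350 had at least 1 lower peak, 426 at least 1 higher peak and 199 had both. Under all 4 scalings 108 genes had both, 2021 only lower and 318 only higher calls. The most higher peaks were at Rplp1 (4 of 8) and Itga9 (3 of 7, none lower), and 23 genes had at least 2. The 5 genes that had at least 2 peaks in each direction were Rplp1, Nfia, Kcng1, Nabp1 and Gm12596. Nfia, a transcription factor gene, had 4 lower (2 under all 4 scalings) and 2 higher of 7 peaks, from -2.48 to 1.15, and lower RNA. Sites of the same gene can thus move in opposite directions.

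RNA of the nearest gene was the other readout of the same genotypes. Of 12944 genes tested, 1864 were lower in Ebf1-KO and 5272 higher, or 3451 and 3999 with TMM scaling. Peaks nearest genes with lower RNA lost more accessibility. Of 2446 such peaks, 1667 were lower (68.2%; 33.7% under all 4 scalings) and 49 higher. Near genes with higher RNA, 1771 of 4147 were lower (42.7%; 13.7% under all 4) and 170 higher (4.10%). Near genes not called, 46.2% were lower and 2.97% higher. Within a library, the mean log2 signal at peaks of RNA-higher genes less that of RNA-lower genes was -0.331, -0.225 and -0.286 in WT against 0.409, 0.426 and 0.432 in Ebf1-KO. The sign turned in all Ebf1-KO libraries (shift 0.70, exact two-sided permutation p = 0.1). With the same RNA groups it turned in Pax5-KO as well, at 0.179, 0.214 and 0.226.

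The same split was seen at shared sites and at promoters. Of 330 shared sites nearest an RNA-lower gene 61.2% were lower under all 4 scalings, against 36.2% of 420 nearest an RNA-higher gene. At promoters the shares were 15.02% of 233 and 0.955% of 628. Near RNA-higher genes 11 of 628 promoter peaks were higher with the submitters' scaling (1.75%, against 1.49% of all promoter peaks). Beyond 1 kb, 151 of 3286 peaks near such genes were higher (4.60%). Over all peaks the share was 2.99 to 4.09% in the distance bins beyond 1 kb. With TMM the median log2 fold change was 0.58 at the promoters of RNA-higher genes and 0.02 at those of RNA-lower genes. Genes whose RNA changed over 4-fold gave 800 lower (441 under all 4 scalings) and 16 higher of 1071 peaks where RNA fell, and 504 lower (168 under all 4) and 65 higher of 1166 where it rose. Peaks of 1 gene share their RNA value, and the nearest gene need not be the one a site acts on.

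**Figure D5:**
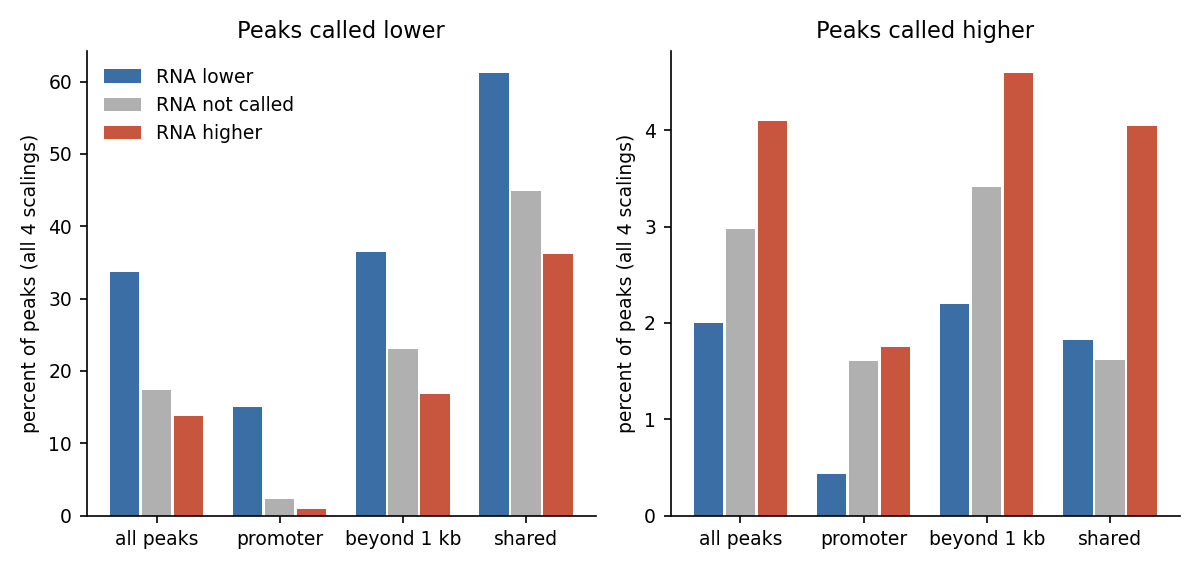
Percent of peaks called lower (left) and higher (right) in Ebf1-KO under all 4 scalings (y axes), for all peaks, promoter peaks, peaks beyond 1 kb and shared sites (x axis), split by the RNA call of the nearest gene. Near RNA-lower genes 33.7% of all peaks are lower, against 13.7% near RNA-higher genes.

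Most of the falls were common to both knockouts. Of 7346 peaks lower in Ebf1-KO, 5691 were also lower in Pax5-KO against the same WT libraries. Of peaks not called in Ebf1-KO, 1689 were lower in Pax5-KO and 4704 were not called there either. Median log2 fold changes over WT were -0.78 in Ebf1-KO and -0.75 in Pax5-KO. They were -0.64 and -0.55 at EBF1-only, -0.84 and -1.03 at PAX5-only and -1.70 and -1.28 at shared sites. Whether the effect of Ebf1 loss differed from that of Pax5 loss was tested directly, Ebf1-KO against Pax5-KO. Of 14365 peaks 1816 were lower in Ebf1-KO than in Pax5-KO (12.6%) and 1301 higher (9.06%). The second count was 862 without Ebf1-KO 2, 655 without Ebf1-KO 3, 851 without Pax5-KO 2 and 819 without Pax5-KO 3. The classes differed in direction. At EBF1-only sites 1333 of 7805 peaks were lower in Ebf1-KO and 397 higher, at PAX5-only sites 123 lower and 765 higher of 5031, and at shared sites 360 lower and 139 higher of 1529. With TMM the counts were 1613 and 718, 182 and 929, and 429 and 207. Among called peaks, EBF1-only sites were thus mostly less open in Ebf1-KO and PAX5-only sites mostly less open in Pax5-KO. Pax5 RNA was at 99.1, 98.6 and 129 in Pax5-KO, above all Ebf1-KO libraries. Ebf1 RNA was at 1328, 1556 and 1661 in Pax5-KO, overlapping the Ebf1-KO libraries.

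Single sites followed several patterns. The promoters of Igll1, Vpreb1, Cd79a and Pou2af1 were at 21.8 ± 4.60, 11.1 ± 5.70, 12.97 ± 1.01 and 12.3 ± 2.10 tags in Pax5-KO, between the other genotypes, and each was called lower in Ebf1-KO by the direct contrast (-2.09, limma adjusted p = 4.38e-10 for Igll1, -2.82, limma adjusted p = 6.38e-14 for Pou2af1, log2 fold change first). The shared site near Gm2447 was at 20.9 ± 7.23 in Pax5-KO and 0.547 ± 0.137 in Ebf1-KO (-3.76, limma adjusted p = 7.36e-20). By contrast, the Celf2 and Kcnk9 sites were near 0 in both knockouts (2.75 ± 0.716 and 1.56 ± 0.824 in Pax5-KO), and the direct contrast did not pass. Il5ra was alike, with 2.58 ± 2.07 in Pax5-KO (-0.52, limma adjusted p = 0.259). Among the rises, Mrgpra1, Rin3 and Cdh26 were at 22.3 ± 4.31, 13.2 ± 0.977 and 17.8 ± 5.56 in Pax5-KO, below Ebf1-KO in each case (1.21, limma adjusted p = 3.30e-04, 1.48, limma adjusted p = 1.27e-05 and 1.35, limma adjusted p = 6.35e-05). Spata13 rose to 46.2 ± 7.31 in Ebf1-KO and was at 8.37 ± 0.747 in Pax5-KO (2.32, limma adjusted p = 1.16e-11). At Flt3 the site was at 17.5 ± 2.68 in Pax5-KO and higher in Ebf1-KO (0.93, limma adjusted p = 0.00480).

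The Ebf1-KO libraries differed from WT in a sex-linked transcript, with Xist RNA at 45559 ± 3926 against 28.4 ± 11.5 in WT. In Pax5-KO it was at 15.1, 1.585 and 42.8. Xist was read in the RNA libraries, and the sex behind the ATAC libraries was not read. Genotype and sex thus cannot be told apart in RNA. The same may hold for sites that depend on sex, both against WT and in the direct contrast with Pax5-KO. On the X chromosome 92 of 172 peaks were lower (53.5%) and 2 higher, with a median log2 fold change of -0.80, against 51.1% lower and a median of -0.78 on autosomes. Leaving out the X and Y chromosomes gave 7255 lower and 469 higher peaks.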

How the data were processed

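RNA and ATAC libraries were grouped by the genotype in their titles. Per the submitters' processing notes, ATAC reads were handled with Bowtie2 and HOMER and RNA reads with TopHat, HOMER, edgeR and DESeq2 on build mm10 (GRCm38). The sources used here give no versions. Per the file headers, the authors' ATAC signal is tags per peak scaled to 10 M per library without mitochondrial tags, and their RNA signal is reads over exons per 10 M. Divided by the worth of 1 read, at least 99.996% of values in every library came out within 0.1 of a whole number, so reads could be recovered for DESeq2 and edgeR. The peak score, the other peak values (distance in bp to the nearest start site, nearest gene and region) and the coverage profiles are the authors' own, as deposited. Whether the profiles pool libraries is not stated there.

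Peaks with at least 10 reads over 9 libraries (14365 of 14377) were tested with limma (trend) on log2(tags + 1), with the authors' scaling kept and 1 mean per genotype. A peak was called where the two-sided p, adjusted over all peaks by Benjamini-Hochberg, was under 0.05. RNA was fitted alike over genes that passed edgeR's filterByExpr. Alternatives were TMM factors, centring on 2514 peaks within 1000 bp of a start site, quantile normalization, GC centring, other added constants, a mean of at least 20, the upper scores, 6 libraries only, DESeq2, edgeR, a replicate block and leaving out each library. Library means were compared by exact two-sided permutation. Named peaks were, by rule, the peak of highest mean signal of each key gene, the 4 largest called falls and rises per site class (mean of at least 20, groups apart), the genes with the most called peaks and up to 3 called peaks of smallest p per gene list, of which some are described. A few named results are not reported here. The members, gene lists and rules were chosen with earlier results of these data known. Fits ran in limma 3.58.1, DESeq2 1.42.0 and edgeR 4.0.16 under R 4.3.3, and tables and plots in pandas 2.3.3, matplotlib 3.10.9 and NumPy 2.4.6 under Python 3.11.15. Gene and promoter sequence came from the RefSeq GRCm38 genome, and locus spans from GENCODE vM21. Within groups ATAC libraries correlated with r from 0.869 to 0.932. The single-condition peak lists, gene tables and PAX5 profiles were not used here.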

Additional observations from a re-analysis of the deposited data

How the results depend on the processing

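The count of peaks lower in Ebf1-KO, 7346 as reported, was 3506 with DESeq2, 4273 with TMM, 4352 with edgeR and TMM (added after the data were seen), 3128 after quantile normalization, 452 among peaks with a mean of at least 20 and 4605 among the upper peak scores. The last 2 settings test fewer peaks (1466 and 7291). Peaks higher, 471 as reported, were 2748, 2923, 3110, 3780, 101 and 170 in the same order, and 1500 after centring on peaks near start sites. For Ebf1-KO against Pax5-KO, start-site centring gave 2734 lower, a mean of at least 20 gave 119 lower and 563 higher, and the upper scores gave 641 higher. With TMM 3451 genes were lower in RNA.

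The mean log2 difference of EBF1-only, PAX5-only and shared sites was -0.51, -0.56 and -1.18 with 5 in place of 1 added, -0.38, -0.31 and -1.27 at a mean of at least 20, -0.16, -0.26 and -0.95 with TMM, 0.12, 0.044 and -0.78 after quantile normalization, -0.42, -0.51 and -1.29 after start-site centring and -1.15, -1.18 and -2.03 at upper scores. After GC centring EBF1-only sites gave -1.06. The PAX5-only less EBF1-only difference was -0.11 and -0.043 with 0.5 and 5 added, 0.075 at a mean of at least 20, 0.069 with GC centring and -0.029 at upper scores. Shared less EBF1-only was -0.67 with 5 added, -0.78 with TMM and -0.76 with GC centring. Shared less PAX5-only was -0.63, -0.68 with TMM, -0.96 at a mean of at least 20 and -0.85 at upper scores. The intronic Blnk peak was at 0.11 with DESeq2, 0.049 with edgeR and TMM and 0.15 after quantile normalization. The cause of these moves was not tested.

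Leaving out each library in turn gave 6581 to 7708 lower and 342 to 531 higher peaks, 1451 to 1953 and 655 to 1661 for Ebf1-KO against Pax5-KO, and 1645 to 1974 and 4349 to 5698 genes in RNA. Class differences ranged from -0.97 to -0.79 (EBF1-only), -1.07 to -0.87 (PAX5-only), -1.88 to -1.62 (shared), -0.098 to -0.084 (PAX5-only less EBF1-only), -0.91 to -0.82 (shared less EBF1-only) and -0.81 to -0.74 (shared less PAX5-only).

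In ATAC no pairing by the replicate numbers in the titles was seen: deviations of WT and Ebf1-KO libraries of the same number correlated at -0.0523, 0.0161 and -0.00112. With the replicate block 7351 peaks were lower and 467 higher, and 1858 and 1278 for Ebf1-KO against Pax5-KO. In RNA the block gave 2247 and 6584 genes, against 1864 and 5272 without it. Some stroma genes, such as Fn1, had their highest RNA in library 2 of each genotype (144, 65.2 and 98.6 in WT, Ebf1-KO and Pax5-KO). Vim did not show this. Whether the numbers pair the RNA libraries was not tested. Of 74 named peaks 69 were called, of which 61 kept their call under every alternative run and 62 under all 4 scalings. Depth limits peaks of a few tags, at which single reads decide the value.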
